A study of Homo sapiens with 27 samples.

Results

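RNA levels in SHP77 cells, a human small cell lung cancer line, were set side by side after transfection with SOX2 siRNA 1 and with SOX2 siRNA 2, which are independent reagents against the same mRNA. The members are the 12790 genes, of 34742 human genes listed, whose mean was at least 50 normalized counts over the 4 SOX2 siRNA libraries, and they are called the described genes below. The groups were SHP77 cells with SOX2 siRNA 1 (n = 2), SHP77 cells with SOX2 siRNA 2 (n = 2) and SHP77 cells with si-control (n = 3), which give reference levels only. All were transfected with RNAiMAX and harvested after 72 hours. Poly(A) RNA libraries were made from 500 ng of RNA and read in pairs of 150 bases. The series holds 27 samples, 11 of them in the same expression table, and the other 4 of these 11 carried NKX2-1 siRNAs. SHP77 is 1 cell line, so the replicates speak for that line, and the series text calls them biological without saying whether they were separate cultures.

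An siRNA is a short double-stranded RNA, of which a single strand is loaded into an Argonaute protein and guides the cleavage of mRNAs complementary to it. A guide strand can also lower other mRNAs that pair only with its seed, the bases near its 5′ end. Independent siRNAs to the same mRNA have different guides, and SOX2, their target here, is an HMG-box transcription factor of stem and neural progenitor cells that is often expressed in small cell lung cancer. The sources used here give no siRNA sequence, so none is printed and no seed match was searched.

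Recovered depth was 30.7 and 17.7 megareads (M) with SOX2 siRNA 1, 18.5 and 16.1 M with SOX2 siRNA 2, and 15.5 to 17.9 M in si-control. The SOX2 siRNA 1 replicates stood farther apart than those of SOX2 siRNA 2 or si-control: the chi-square of their reads per degree of freedom was 5.78 with SOX2 siRNA 1, 1.58 with SOX2 siRNA 2 and 1.52 to 1.56 in si-control. It was 4.65 and 2.13 with the 2 NKX2-1 siRNAs, whose libraries enter the fit, and it grows with read depth. The described genes at least 1.5-fold apart between replicates numbered 131 with SOX2 siRNA 1 and 112 with SOX2 siRNA 2, against 436 between the siRNAs. Neuroendocrine markers of small cell lung cancer were high in all 4 SOX2 siRNA libraries, with the transcription factor INSM1 at 20016 and 16836 with SOX2 siRNA 1 and 18254 and 18233 with SOX2 siRNA 2. NEUROD1 and YAP1, which mark some kinds of this cancer, were at 0 there.

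SOX2 itself (ENSG00000181449.3, chromosome 3, 181711925 to 181714436, GRCh38.p14) stood at 396 and 389 normalized counts with SOX2 siRNA 1, 466 and 439 with SOX2 siRNA 2 and 1191, 1152 and 1084 in si-control. Both siRNAs left every library below every si-control library, and the SOX2 siRNA 1 libraries were the lower ones, with no overlap. The difference between the siRNAs was small and just passed the test (log2 difference -0.20, SE 0.07, adjusted p = 0.0316, limma over all 16750 genes tested). It no longer passed under 11 of 18 other settings, among them the fit without SOX2 siRNA 1 replicate 2 and the fit without SOX2 siRNA 2 replicate 1, with adjusted p from 0.0232 to 0.227. NKX2-1, a lineage transcription factor of lung, had 2764 and 2446 with SOX2 siRNA 1, 2608 and 2531 with SOX2 siRNA 2 and 2234 ± 110.0 in si-control, with overlapping siRNA groups (log2 difference 0.02, SE 0.06, adjusted p = 0.899). RMST, the long non-coding gene that hosts the circular RNA of the series, did not pass either (log2 difference 0.09, SE 0.21, adjusted p = 0.827).

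Apart from their common target, the siRNAs left many genes at different levels, mostly by small amounts. Of the described genes, 2955 passed the test, which is 23.1% of them, 1291 higher (10.1%) and 1664 lower (13.0%) with SOX2 siRNA 1. Over all 16750 genes tested, 18.5% passed, 8.08% higher and 10.4% lower. Differences below are log2 differences of normalized counts, SOX2 siRNA 1 minus SOX2 siRNA 2, with adjusted p from limma, and "higher" and "lower" refer to SOX2 siRNA 1 relative to SOX2 siRNA 2. The libraries of the siRNAs did not overlap for 7405 described genes (57.9%, against 53.4% of all tested), and 2952 of the genes that passed were among them. The median size of the 2955 differences was 0.30 on the log2 scale, or 1.23-fold, against 0.13 over all described genes, and the median signed difference of all described genes was 0.0018. Leaving out SOX2 siRNA 2 replicate 1 gave 695 higher and 1115 lower genes, and leaving out SOX2 siRNA 2 replicate 2 gave 697 and 1108.

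Large differences ran mostly in a single direction. At least 1.5-fold differences that passed numbered 410 (3.21%, against 3.28% of all tested), 73 higher and 337 lower with SOX2 siRNA 1. At least 2-fold differences numbered 82 (0.641%, against 1.06% of all tested), 9 higher and 73 lower. A single gene, COMMD8, was over 4-fold lower, and none was 4-fold higher. Of the 73 genes at least 2-fold lower, the SOX2 siRNA 1 libraries lay below all 9 other libraries of these and the NKX2-1 siRNA groups for 61, and the SOX2 siRNA 2 libraries lay above all 9 others for 25. For 51 of the 73 the SOX2 siRNA 2 mean was within 1.5-fold of the si-control mean and the SOX2 siRNA 1 mean was not, and for 8 it was the other way round. The 73 genes were chosen for a low level with SOX2 siRNA 1 relative to SOX2 siRNA 2, so an outlying siRNA is partly built into these counts. They were not taken over all described genes and carry no test. The plot of difference against level shows the 73 lower genes against the 9 higher.

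**Figure D1:**
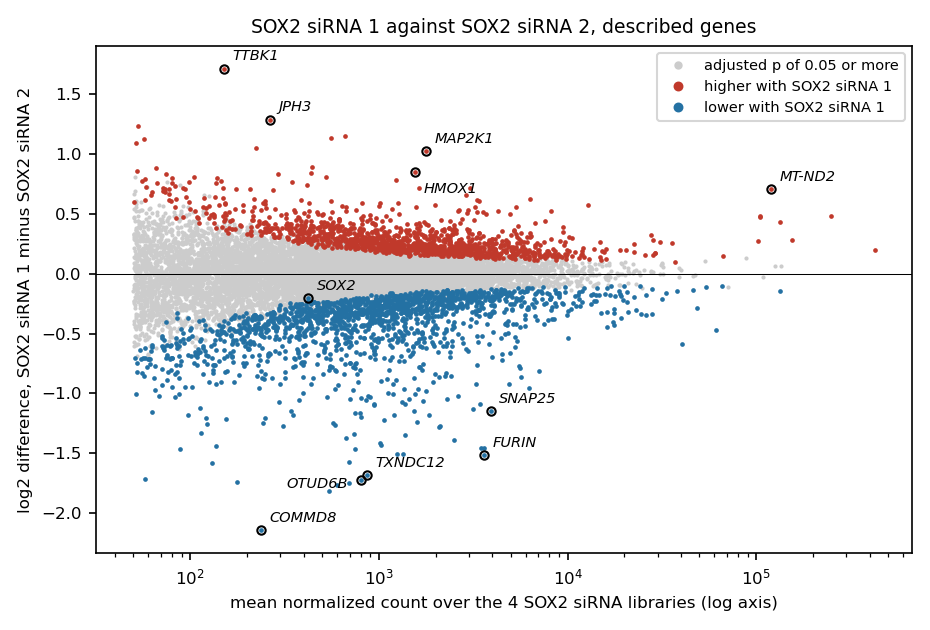
Each point is a described gene, with its mean normalized count over the 4 SOX2 siRNA libraries on a log axis and its log2 difference, SOX2 siRNA 1 minus SOX2 siRNA 2, on the other axis. Red points (1291) passed as higher and blue points (1664) as lower with SOX2 siRNA 1, and the points beyond 1 on the log2 scale lie mostly on the lower side, 73 against 9.

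COMMD8 (chromosome 4), a subunit of an endosomal recycling complex, had 86.1 and 87.5 normalized counts with SOX2 siRNA 1, 369 and 405 with SOX2 siRNA 2 and 349, 349 and 369 in si-control (log2 difference -2.14, SE 0.10, adjusted p = 7.30e-15). The SOX2 siRNA 1 libraries were thus the lowest, and those of SOX2 siRNA 2 lay beside the controls. FURIN (chromosome 15), the protease that cleaves many proproteins in the Golgi, had 1982 and 1769 with SOX2 siRNA 1, 5395 and 5307 with SOX2 siRNA 2 and 5950.4 ± 43.3 in si-control (log2 difference -1.51, SE 0.05, adjusted p = 7.23e-18). VAMP3 (chromosome 1), a SNARE of recycling vesicles, had 697 and 699.6 with SOX2 siRNA 1, 1937 and 2028 with SOX2 siRNA 2 and 1578 ± 50.6 in si-control (log2 difference -1.50, SE 0.06, adjusted p = 1.52e-16). Again SOX2 siRNA 1 gave the low libraries, while VAMP3 with SOX2 siRNA 2 was above every other library. TXNDC12 (chromosome 1), a thioredoxin-like protein of the endoplasmic reticulum, had 386 and 435 with SOX2 siRNA 1, 1292 and 1342 with SOX2 siRNA 2 and 1609 ± 41.4 in si-control (log2 difference -1.68, SE 0.06, adjusted p = 3.60e-17).

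The other genes of this set have various roles. HMGN5, a nucleosome-binding protein, was at 295 and 341 with SOX2 siRNA 1, 1054 and 1083 with SOX2 siRNA 2 and 1105 ± 53.8 in si-control (-1.75, adjusted p = 2.97e-15). IL6R, the receptor of interleukin 6, was at 84.0 and 77.6 with SOX2 siRNA 1, 278 and 267 with SOX2 siRNA 2 and 263 ± 39.5 in si-control (-1.74, adjusted p = 7.34e-10). OTUD6B, a deubiquitinase, was at 370.1 and 381 with SOX2 siRNA 1, 1235 and 1240.2 with SOX2 siRNA 2 and 1147 ± 17.3 in si-control (-1.72, adjusted p = 2.43e-17). For these 3 genes the SOX2 siRNA 1 libraries were below all others, by over 3-fold against SOX2 siRNA 2. IL6R was also under si-control with the NKX2-1 siRNAs, at 93.4 and 102 with NKX2-1 siRNA 1 and 148 and 130 with NKX2-1 siRNA 2. APIP, an enzyme of methionine salvage, was 2.99-fold lower, ZNF708, a zinc finger protein of a large family of close relatives, 3.41-fold and ANKRD46 3.52-fold. MIGA1, a mitochondrial fusion protein, was 2.98-fold lower. GPC5-IT1, a non-coding transcript of an intron of GPC5, was 3.28-fold lower, and reads of its host cannot be told apart from its own where they overlap.

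Fewer genes were much higher with SOX2 siRNA 1. TTBK1 (chromosome 6), a tau kinase of neurons, had 256 and 211 normalized counts with SOX2 siRNA 1, 74.7 and 65.8 with SOX2 siRNA 2 and 141 ± 23.4 in si-control (log2 difference 1.71, SE 0.16, adjusted p = 5.10e-09). JPH3 (chromosome 16), which tethers the endoplasmic reticulum to the plasma membrane in neurons, had 375 and 374 with SOX2 siRNA 1, 149 and 157 with SOX2 siRNA 2 and 405 ± 5.92 in si-control (log2 difference 1.28, SE 0.11, adjusted p = 1.08e-09). In both genes the SOX2 siRNA 2 libraries were low, and for JPH3 those of SOX2 siRNA 1 stood near the controls. JPH3 was also under si-control with the NKX2-1 siRNAs, at 148 and 131 with NKX2-1 siRNA 1 and 204 and 202 with NKX2-1 siRNA 2. MAP2K1 (chromosome 15), the MAPK kinase MEK1, had 2449 and 2343 with SOX2 siRNA 1, 1153 and 1208 with SOX2 siRNA 2 and 2204, 2172 and 2171 in si-control (log2 difference 1.02, SE 0.05, adjusted p = 1.41e-14). HMOX1 (chromosome 22), which degrades heme, had 2143 and 1879.6 with SOX2 siRNA 1, 1062 and 1166 with SOX2 siRNA 2 and 559 ± 40.1 in si-control (log2 difference 0.85, SE 0.09, adjusted p = 2.55e-08). MAP2K1 thus had its low libraries with SOX2 siRNA 2, whereas HMOX1 was above the controls with both siRNAs and highest with SOX2 siRNA 1.

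ARHGAP17, a GTPase-activating protein, was 2.20-fold higher with SOX2 siRNA 1 (adjusted p = 1.29e-10) and SLC35E3 2.21-fold (adjusted p = 1.84e-11). PMEPA1, an inhibitor of TGF-beta signaling, was 1.86-fold higher. KCP, a modulator of BMP signaling, was 2.35-fold higher, the G protein subunit GNA15 2.17-fold, IQCN 2.13-fold and the phospholipid flippase ATP8A2 1.84-fold. Each of these last 4 lost its call under 1 or 2 other settings: KCP without SOX2 siRNA 1 replicate 1 or SOX2 siRNA 2 replicate 1, GNA15 and ATP8A2 without SOX2 siRNA 2 replicate 2, and IQCN and ATP8A2 with no filter on level. The highest adjusted p were 0.0592, 0.0573, 0.0507 and 0.0983.

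**Figure D2:**
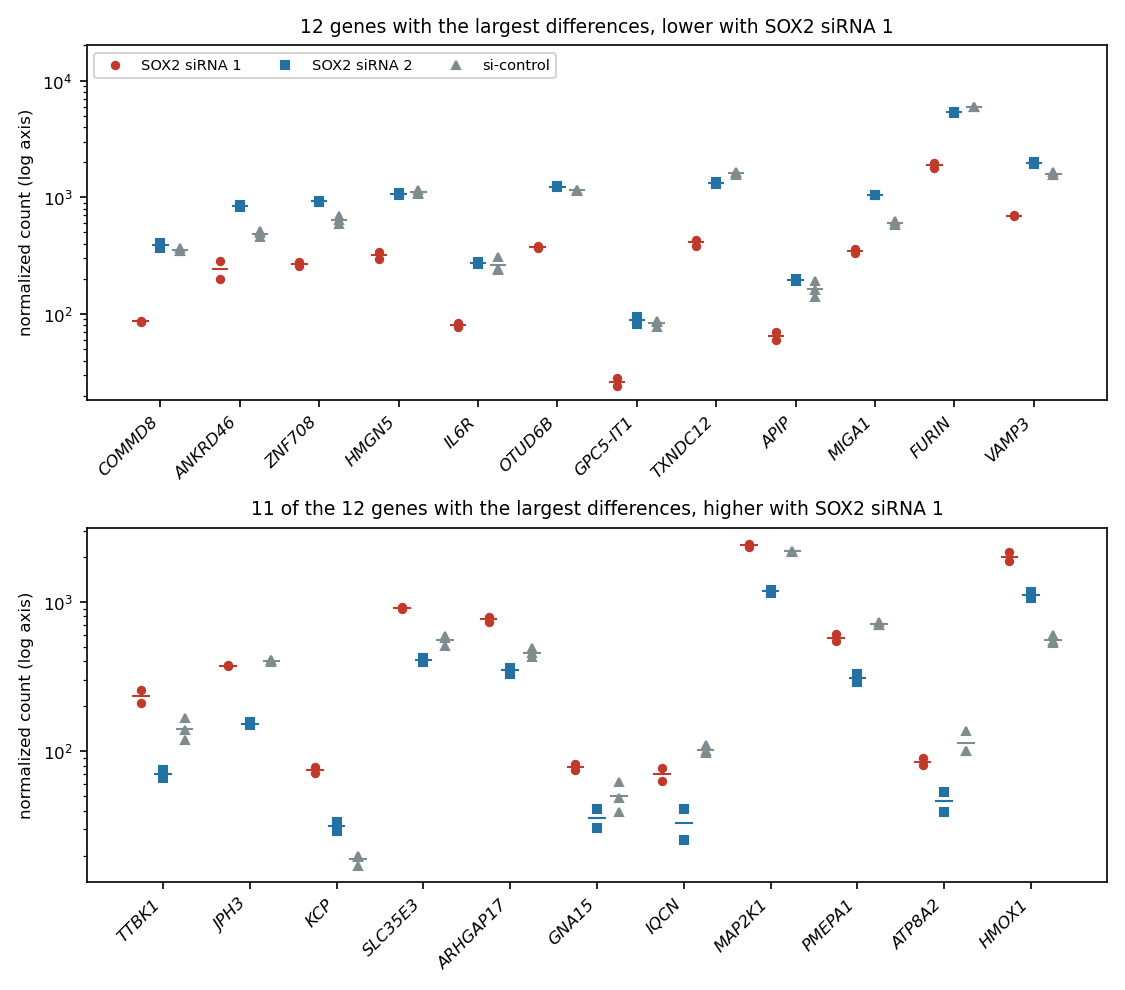
Normalized counts on log axes of the 12 genes lowest (upper panel) and 11 of the 12 highest (lower panel) with SOX2 siRNA 1 relative to SOX2 siRNA 2, with 1 symbol per library and a bar at each group mean. In the upper panel the SOX2 siRNA 1 circles lie below the squares of SOX2 siRNA 2, which stand near the si-control triangles for most genes, as with COMMD8 at 369 and 405 against 356 ± 11.7.

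The si-control libraries show on which side each difference lay. Among the 2955 genes that passed, the si-control mean was above both siRNA means for 1087 (36.8%), below both for 891 (30.2%) and between them for 977 (33.1%), against 38.2%, 44.0% and 17.9% of all described genes. Genes that passed were chosen for a gap between the siRNA means (median size 0.30, against 0.13 over all described genes). A wider gap holds the si-control mean more easily, so the share between them is not an independent result. Where both siRNAs were on the same side of si-control, SOX2 siRNA 1 was farther from it for 1373 genes and SOX2 siRNA 2 for 605. SOX2 siRNA 1 was at least 1.5-fold from si-control, and SOX2 siRNA 2 was not, for 483, and the reverse held for 181. For 7 genes the siRNAs were both at least 1.5-fold away, on opposite sides. These counts carry no test against si-control. Those by distance from si-control were taken among the genes that passed only, with no share over all described genes beside them.

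All si-control libraries lay between all libraries of the siRNAs for 436 genes that passed, 161 with SOX2 siRNA 1 on the high side and 275 with it on the low side. This arrangement was not counted over all described genes. On the high side, ARHGAP17 had 790.0 and 738 with SOX2 siRNA 1, 363 and 332 with SOX2 siRNA 2 and 452, 427 and 492 in si-control (log2 difference 1.14, SE 0.09, adjusted p = 1.29e-10). SLC35E3 had 917 and 895 with SOX2 siRNA 1, 395 and 424 with SOX2 siRNA 2 and 577, 507 and 591 in si-control. The siRNAs thus stood on either side of the controls for these genes, with no overlap. On the low side, MIGA1 had 335 and 362 with SOX2 siRNA 1, 1038 and 1039 with SOX2 siRNA 2 and 631, 579 and 593 in si-control, and ANKRD46 had the same order.

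The same order held for 3 genes of 1 family on the X chromosome that the rule also took, MAGEA12, MAGEA8 and MAGEA3. MAGEA genes encode cancer-testis antigens, which are silent in most adult tissues outside the testis and are expressed in many tumours. The rest of the family was looked up after these values had been seen, so the family gets no test as a group. MAGEA12 had 638 and 661 normalized counts with SOX2 siRNA 1, 1812 and 1874 with SOX2 siRNA 2 and 1240.5, 1065 and 1130.4 in si-control (log2 difference -1.50, SE 0.07, adjusted p = 1.62e-15). MAGEA8 had 417 and 422 with SOX2 siRNA 1, 1099 and 1025 with SOX2 siRNA 2 and 666, 669 and 688 in si-control (log2 difference -1.34, SE 0.07, adjusted p = 1.97e-14). MAGEA3 had 1261 and 1165 with SOX2 siRNA 1, 2963 and 2923 with SOX2 siRNA 2 and 1892, 1863 and 1831 in si-control (log2 difference -1.28, SE 0.05, adjusted p = 1.61e-16). For each of the 3, no library of these groups overlapped another of them. The NKX2-1 siRNA libraries also lay above every si-control library for all 3 genes. MAGEA12 had 1485 and 1356 with NKX2-1 siRNA 1 and 1353 and 1392 with NKX2-1 siRNA 2. MAGEA8 had 1011.7 and 1010.7, then 1062 and 1128, in the same order, overlapping SOX2 siRNA 2. MAGEA3 had 2359.5 and 2368, then 2425 and 2336.

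Of the 12 MAGEA genes listed, 8 were described. MAGEA6 had 851 and 857 with SOX2 siRNA 1, 1796 and 1801 with SOX2 siRNA 2 and 1116, 1160.1 and 1249 in si-control (log2 difference -1.07, SE 0.06), but it is a near-identical copy of MAGEA3, and reads of the pair may have been split between them. The other 4 did not pass. MAGEA4, the most abundant, had 8670.5 and 8796 with SOX2 siRNA 1, 8915 and 8969.6 with SOX2 siRNA 2 and 8104, 8224 and 8068 in si-control (-0.03, SE 0.04), and its siRNA groups did not overlap but lay close together. MAGEA10 differed by 0.12 (SE 0.06), MAGEA11 by 0.11 (SE 0.07) and MAGEA9B by 0.12 (SE 0.10).

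**Figure D3:**
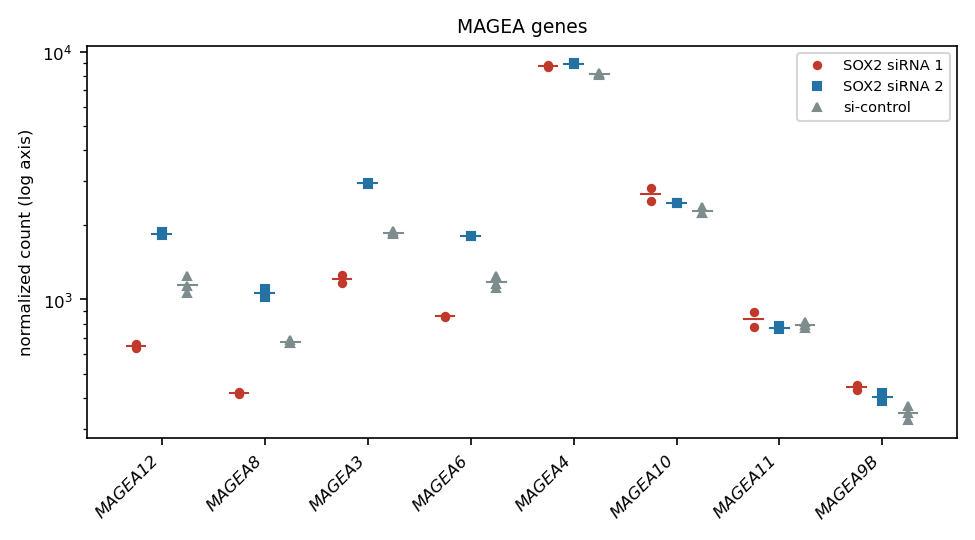
Normalized counts on a log axis of the 8 described MAGEA genes, with 1 symbol per library and a bar at each group mean. For MAGEA12, MAGEA8, MAGEA3 and MAGEA6 the circles of SOX2 siRNA 1 lie below the si-control triangles and the squares of SOX2 siRNA 2 above them, while the groups of the other 4 lie close together, as with MAGEA4 at 8733 against 8942.

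Promoters of 3 of the 4 that differed and of MAGEA4 are printed because the family splits between them, from 250 bases before the gene start to 20 bases after it (RefSeq, GRCh38.p14, 5′ to 3′ on the gene's strand). The capitals mark the longest run, of 18 bases, that the 300-base promoter windows of MAGEA12, MAGEA8, MAGEA3 and MAGEA6 share. It starts 12 bases before the gene start in MAGEA12 and MAGEA8, and 86 bases before it in MAGEA3. MAGEA12 lies at chrX:152733507-152733776 (plus strand), MAGEA3 at chrX:152698544-152698813 (plus strand), MAGEA8 at chrX:149880933-149881202 (plus strand) and MAGEA4 at chrX:151912224-151912493 (plus strand).
MAGEA12: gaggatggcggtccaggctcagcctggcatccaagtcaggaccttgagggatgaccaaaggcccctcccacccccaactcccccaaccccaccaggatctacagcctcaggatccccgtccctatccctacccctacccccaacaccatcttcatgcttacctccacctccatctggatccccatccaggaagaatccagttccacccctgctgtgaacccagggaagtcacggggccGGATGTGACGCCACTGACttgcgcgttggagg
MAGEA3: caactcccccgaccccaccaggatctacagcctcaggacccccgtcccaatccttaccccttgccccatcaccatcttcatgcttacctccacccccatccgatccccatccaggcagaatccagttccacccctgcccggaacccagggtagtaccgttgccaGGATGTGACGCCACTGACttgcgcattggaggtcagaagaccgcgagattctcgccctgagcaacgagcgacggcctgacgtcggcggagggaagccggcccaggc
MAGEA8: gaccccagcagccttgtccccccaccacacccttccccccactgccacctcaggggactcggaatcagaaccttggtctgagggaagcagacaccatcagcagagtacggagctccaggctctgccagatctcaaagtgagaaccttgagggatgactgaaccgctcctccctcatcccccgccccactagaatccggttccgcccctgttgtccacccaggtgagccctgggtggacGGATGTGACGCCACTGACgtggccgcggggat
MAGEA4: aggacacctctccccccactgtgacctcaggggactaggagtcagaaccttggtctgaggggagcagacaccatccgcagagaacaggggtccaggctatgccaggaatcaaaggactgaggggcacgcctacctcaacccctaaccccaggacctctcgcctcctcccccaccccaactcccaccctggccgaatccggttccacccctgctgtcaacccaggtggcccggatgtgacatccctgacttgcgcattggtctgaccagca
The MAGEA6 window is 100% identical to that of MAGEA3. The run GGATGTGACGCCACTGAC was found in 10 of 27305 promoter windows (0.0366%, either strand), none of them that of MAGEA4, MAGEA11 or MAGEA9B. The search took exact matches only. MAGEA9B, which did not pass, holds ggatgtgacgtcactgac, which differs from the run at a single base. MAGEA4 holds the similar ggatgtgacatccctgac. The 10 windows belong to MAGEA3, MAGEA6, MAGEA8, MAGEA12, MAGEA2, MAGEA2B, CSAG1, CSAG3, MAGEA3-DT and MAGEA6-DT. Of these genes 6 were described, and 4 of the 6 were the MAGEA genes already named. CSAG1, with the run, had 695 and 677 with SOX2 siRNA 1, 670.3 and 691 with SOX2 siRNA 2 and 691, 676 and 716 in si-control (0.01, SE 0.07, adjusted p = 0.941), and CSAG3 did not pass either (-0.11, SE 0.15, adjusted p = 0.681). The run is therefore shared by genes that passed and genes that did not. CATTGT, a core of SOX binding motifs, was searched on both strands and found in none of the windows of MAGEA12, MAGEA3, MAGEA6 and MAGEA8, nor in those of MAGEA4, MAGEA11 and MAGEA9B, against 11.0% of all 27305 windows. At that share so few, related windows could well hold none, so nothing is concluded from its absence.

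Mitochondrially encoded mRNAs, which carry the subunits of the respiratory chain that the mitochondrial genome encodes, were higher with SOX2 siRNA 1. Of 13 described, 10 passed as higher and 0 as lower, with a median of 0.28, against 10.1% and 13.0% and a median of 0.0018 over all described genes. MT-ND2, of complex I, had 148226 and 150497 with SOX2 siRNA 1, 94478 and 88909 with SOX2 siRNA 2 and 160851, 153410.0 and 160449 in si-control (log2 difference 0.70, SE 0.04, adjusted p = 5.83e-13). MT-ATP6, of the ATP synthase, had 115110.0 and 129653 with SOX2 siRNA 1, 89733 and 84957 with SOX2 siRNA 2 and 155922, 147925 and 154921 in si-control (log2 difference 0.48, SE 0.05, adjusted p = 2.03e-08). SOX2 siRNA 2 thus gave the low libraries, and MT-ND2 with SOX2 siRNA 1 lay just under the controls. MT-CO3 of complex IV differed by 0.43 and MT-CYB of complex III by 0.27. Levels of MT-ND5, MT-ND6 and MT-ATP8 did not pass (0.13, -0.01 and 0.16). MT-ND6 is encoded on the other strand from its neighbours, and use of strand in counting was not given in the sources used here. The share of reads on mitochondrial genes was 8.36% and 8.96% with SOX2 siRNA 1, 7.06% and 6.90% with SOX2 siRNA 2, and 9.95 to 10.3% in si-control, and the part of this share in other results was not tested. With quantile normalization 6 of the 13 passed, all higher. With no filter on mean level 7 passed, all higher. Without SOX2 siRNA 1 replicate 1 the median was 0.47, and without SOX2 siRNA 1 replicate 2 it was 0.25. It was 0.39 without SOX2 siRNA 2 replicate 1 and 0.25 without SOX2 siRNA 2 replicate 2.

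**Figure D4:**
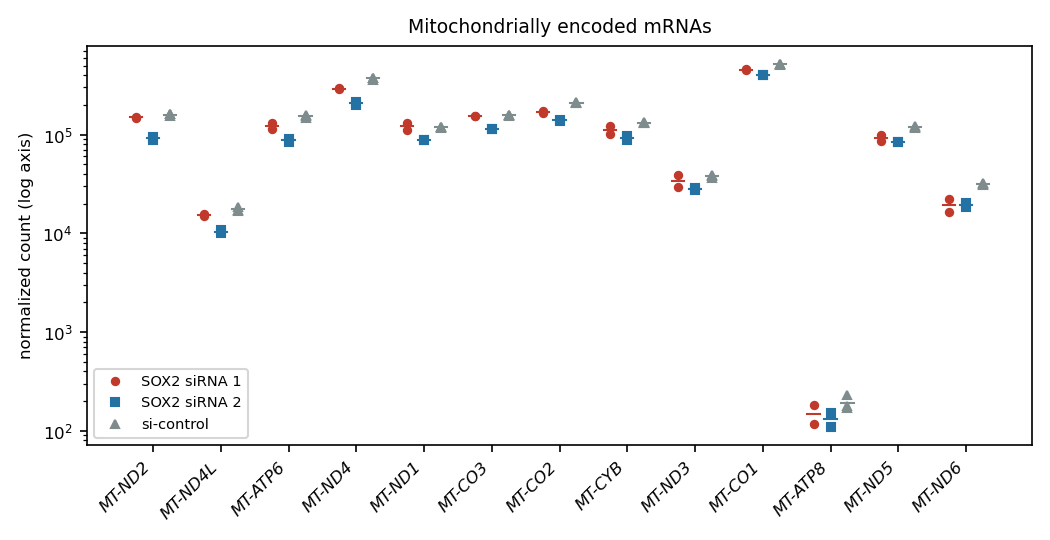
Normalized counts on a log axis of the 13 mitochondrially encoded mRNAs, ordered by difference, with 1 symbol per library and a bar at each group mean. For each of the 10 genes from MT-ND2 to MT-CO1, both circles of SOX2 siRNA 1 lie above both squares of SOX2 siRNA 2.

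Genes of the unfolded protein response, the chaperones and enzymes that fold secreted proteins in the endoplasmic reticulum, were lower with SOX2 siRNA 1. Of 20 described, 0 passed as higher and 13 as lower, 65% against 23.1% of all described genes, with a median of -0.23. MANF, a secreted stress-induced protein of this compartment, had 1677 and 1729 with SOX2 siRNA 1, 2584 and 2479 with SOX2 siRNA 2 and 3136 ± 25.6 in si-control (log2 difference -0.57, SE 0.05, adjusted p = 5.20e-10). HSP90B1, its HSP90 chaperone, had 20927 and 22624 with SOX2 siRNA 1, 27263 and 27595 with SOX2 siRNA 2 and 37616 ± 455 in si-control (log2 difference -0.33, SE 0.04, adjusted p = 7.07e-07). These 2 were below si-control with both siRNAs and lowest with SOX2 siRNA 1. PDIA4, a protein disulfide isomerase, had 6861 and 6807 with SOX2 siRNA 1, 9036 and 8831 with SOX2 siRNA 2 and 4904 ± 113 in si-control (log2 difference -0.39, SE 0.04, adjusted p = 2.52e-08), above the controls with both. HSPA5, the chaperone BiP, differed by -0.33, CALR by -0.30 and the transcription factor XBP1 by -0.25, while ATF6 and ERN1, stress sensors of the membrane, did not pass (-0.02 and -0.06). The integrated stress response, which ATF4 drives when translation initiation is slowed, was also examined. Of its 21 described genes, 8 passed as higher and 0 as lower (median 0.12), 38.1% against 23.1% of all described genes. Among those that passed were ATF3 (0.34) and SLC7A5 (0.28), with ATF4 itself at -0.08, which did not pass. The mean of ATF3 was 456 with SOX2 siRNA 1, 363 with SOX2 siRNA 2 and 842 in si-control, so ATF3 was under si-control with both siRNAs. ATF3 lost its call in 4 of 18 settings, and over all of them its log2 difference ran from 0.16 to 0.51. The counts of this list were 5 higher and 1 lower without SOX2 siRNA 1 replicate 1, with the median at 0.05, and also 5 and 1 without SOX2 siRNA 2 replicate 2. They were 2 and 0 without SOX2 siRNA 2 replicate 1 and with the SOX2 siRNA libraries alone, and 1 and 0 with no filter on mean level.

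**Figure D5:**
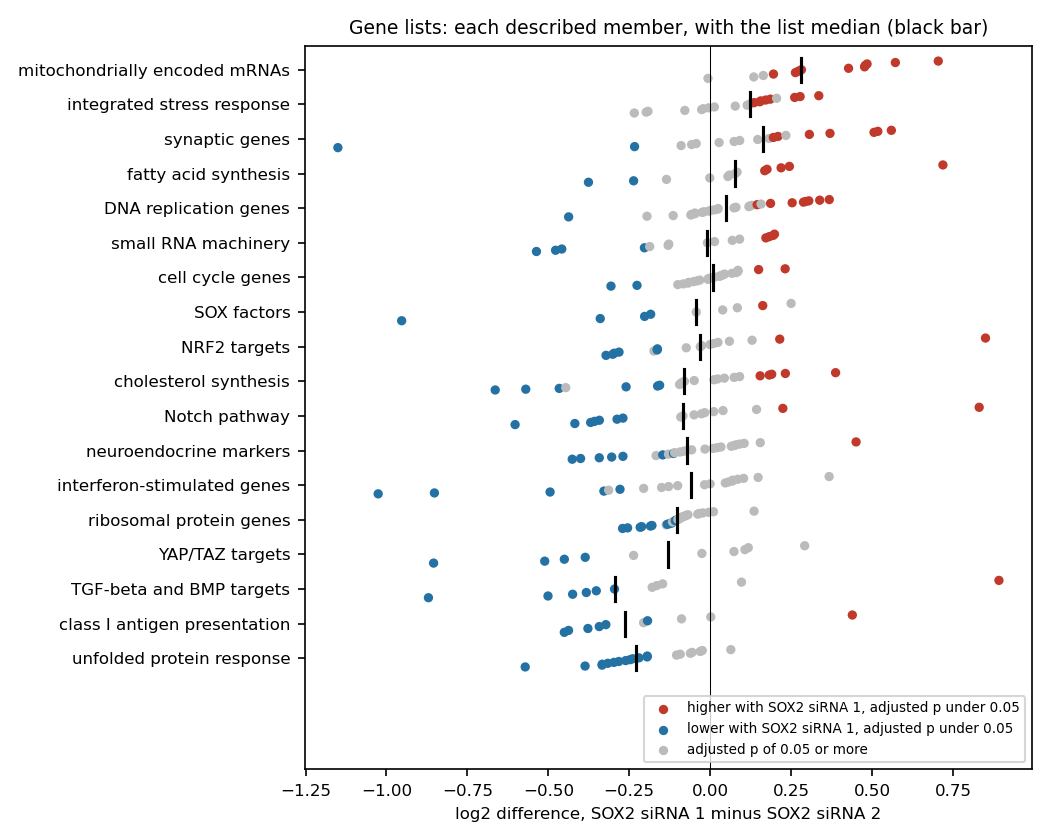
Log2 difference, SOX2 siRNA 1 minus SOX2 siRNA 2, of each described member of 18 gene lists, with a black bar at the list's median. The mitochondrially encoded mRNAs lie mostly right of 0 (median 0.28) and the unfolded protein response (-0.23), class I antigen presentation (-0.26) and TGF-beta and BMP targets (-0.30) mostly left of it.

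Targets of TGF-beta and BMP, ligands whose receptors act through SMAD proteins, passed as higher for 1 and as lower for 6 of 11 (median -0.30). The share that passed was 63.6%, against 23.1% of all described genes. BAMBI, a decoy receptor of the pathway, had 198 and 145 with SOX2 siRNA 1, 301 and 321 with SOX2 siRNA 2 and 374 ± 31.7 in si-control (log2 difference -0.87, SE 0.12, adjusted p = 3.50e-06). ID3, an inhibitor of bHLH factors, had 4003 and 3708 with SOX2 siRNA 1, 5481 and 5424 with SOX2 siRNA 2 and 4780.4 ± 76.2 in si-control (log2 difference -0.50, SE 0.05, adjusted p = 3.87e-09). The SOX2 siRNA 1 libraries were below all others for both genes. ID1 differed by -0.38, SKIL by -0.42 and the inhibitory SMAD7 by -0.35, against PMEPA1 at 0.89, the member that passed as higher.

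Notch is a receptor cut on contact with its ligands, and its target HES1 is a transcriptional repressor. In this list 2 passed as higher and 7 as lower of 17 (median -0.08), 52.9% against 23.1% of all described genes. LFNG, a glycosyltransferase that modifies the receptor, had 1784 and 1670.2 with SOX2 siRNA 1, 2622 and 2623 with SOX2 siRNA 2 and 1970.2 ± 51.6 in si-control (log2 difference -0.60, SE 0.06, adjusted p = 5.30e-09). HEYL, a target, had 98.2 and 93.6 with SOX2 siRNA 1, 56.1 and 51.0 with SOX2 siRNA 2 and 106 ± 12.9 in si-control (log2 difference 0.83, SE 0.20, adjusted p = 0.00336). LFNG was highest with SOX2 siRNA 2, and HEYL was lowest with it. The ligand DLL3 differed by -0.27, but its SOX2 siRNA 1 replicates were far apart, at 8960.2 and 6922, against 9438 and 9549.5 with SOX2 siRNA 2. HES1 differed by -0.42 and lost its call in 6 of 18 settings. Without SOX2 siRNA 1 replicate 2, the list's counts were 3 and 2 and its median 0.03, and without SOX2 siRNA 2 replicate 2 the counts were 1 and 3.

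Of 9 described SOX factors, the family of the target, 1 passed as higher and 4 as lower (median -0.04). That is 55.6%, against 23.1% of all described genes. SOX6, an HMG-box factor without a transactivation domain, had 151 and 165 with SOX2 siRNA 1, 298 and 315 with SOX2 siRNA 2 and 399 ± 24.1 in si-control (log2 difference -0.95, SE 0.10, adjusted p = 3.98e-08). SOX4 had 2819.9 and 2988 with SOX2 siRNA 1, 3557 and 3794 with SOX2 siRNA 2 and 4422 ± 90.5 in si-control (log2 difference -0.34, SE 0.05, adjusted p = 3.89e-06). Both were below si-control with either siRNA and lowest with SOX2 siRNA 1. SOX21 differed by 0.08 and SOX5 by -0.04, which did not pass. The counts of this list were 0 and 3 without SOX2 siRNA 2 replicate 1 and also without SOX2 siRNA 2 replicate 2.

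Neuroendocrine markers, the granule and secretory genes and transcription factors that define this kind of tumour, passed as higher for 1 and as lower for 7 of 25 (median -0.07). Their share of calls was 32%, against 23.1% of all described genes. With quantile normalization the counts were 4 and 5 and the median -0.04, so the lean to the lower side depended on the scaling. PCSK1, a prohormone convertase, had 14705 and 15388 with SOX2 siRNA 1, 20408 and 20019.6 with SOX2 siRNA 2 and 44914 ± 172 in si-control (log2 difference -0.43, SE 0.04, adjusted p = 7.45e-10). SCG2, a secretogranin, had 14352 and 15792 with SOX2 siRNA 1, 19989.8 and 19753 with SOX2 siRNA 2 and 32887 ± 202 in si-control (log2 difference -0.40, SE 0.04, adjusted p = 6.91e-08). Both siRNAs left these genes under si-control, and SOX2 siRNA 1 farther. INSM1, a transcription factor of the neuroendocrine state, did not pass (0.01), nor did CHGA (-0.08). The counts were 1 and 4 without SOX2 siRNA 2 replicate 1. Of the non-neuroendocrine markers, 1 passed as higher (MYC) and 4 as lower of 6 (median -0.28), and without SOX2 siRNA 2 replicate 2 the counts were 0 and 2, without SOX2 siRNA 2 replicate 1 they were 0 and 3, and without SOX2 siRNA 1 replicate 2 they were 1 and 2. The non-neuroendocrine share was 83.3%, against 23.1% of all described genes. Of 7 neuropeptide and hormone genes, VGF passed as higher (0.25) and CALCA as lower (-0.11), 28.6% against 23.1%, and CALCA lost its call in 10 of 18 settings. VGF lost its call with no filter on mean level, which left the list with 0 calls, and its log2 difference was 0.12 without SOX2 siRNA 1 replicate 1.

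Synaptic genes, which build the machinery of vesicle release, passed as higher for 7 and as lower for 2 of 18 (median 0.16, and 0.08 without SOX2 siRNA 2 replicate 1). In the main fit 50% of them passed, against 23.1% of all described genes. SNAP25, a SNARE of the plasma membrane, had 2350.2 and 2519 with SOX2 siRNA 1, 5425 and 5377 with SOX2 siRNA 2 and 6921, 7051 and 6875 in si-control (log2 difference -1.15, SE 0.04, adjusted p = 2.57e-17). SYN1, a synapsin of the vesicle surface, had 831 and 758 with SOX2 siRNA 1, 523 and 553 with SOX2 siRNA 2 and 607 ± 35.2 in si-control (log2 difference 0.56, SE 0.09, adjusted p = 2.65e-05). SNAP25 and SYN1 differed in opposite directions: SNAP25 was lowest with SOX2 siRNA 1, and SYN1 was highest with it. VAMP2 differed by 0.37, SYT11 by 0.51 and SYP by -0.06, of which SYP did not pass.

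Class I antigen presentation, by which peptides are cut, carried into the endoplasmic reticulum and shown on the cell surface, passed as higher for 1 and as lower for 6 of 10 (median -0.26). The share that passed was 70%, against 23.1% of all described genes. TAP1, a subunit of the peptide transporter, had 381 and 335 with SOX2 siRNA 1, 508 and 469.8 with SOX2 siRNA 2 and 1271 ± 38.4 in si-control (log2 difference -0.45, SE 0.08, adjusted p = 7.06e-05). PSME1, a proteasome activator, had 1174 and 1119.6 with SOX2 siRNA 1, 1478 and 1632 with SOX2 siRNA 2 and 2286 ± 14.8 in si-control (log2 difference -0.44, SE 0.06, adjusted p = 1.45e-06). Both were below si-control with either siRNA and lowest with SOX2 siRNA 1. TAP2, the partner of TAP1, was the member that passed as higher (0.44), and its call was lost in 5 of 18 settings.

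Interferon-stimulated genes passed as higher for 0 and as lower for 5 of 20 (median -0.06), a share of 25% against 23.1% of all described genes. PARP9, an ADP-ribosyltransferase family member, had 153 and 150.3 with SOX2 siRNA 1, 202 and 227 with SOX2 siRNA 2 and 299.6 ± 14.2 in si-control (log2 difference -0.49, SE 0.14, adjusted p = 0.0102). It was below si-control with both siRNAs and lowest with SOX2 siRNA 1, and it lost its call without SOX2 siRNA 2 replicate 2 and with no filter on mean level. CMPK2 differed by -1.03 with replicates at 61.9 and 30.8 with SOX2 siRNA 1, and it lost its call without SOX2 siRNA 1 replicate 2. STAT2 and ISG15 did not pass (-0.02 and -0.00), and without SOX2 siRNA 2 replicate 2 the lower count was 3. Of the double-stranded RNA sensors and partners, 2 passed as higher (TICAM1 and ADAR, 0.35 and 0.12) and 0 as lower of 6 (median -0.08). That is 33.3%, against 23.1% of all described genes. TICAM1 lost its call in 10 of 18 settings and ADAR in 5. NF-kB and inflammatory genes passed as higher for 1 and as lower for 3 of 11 (median -0.05), 36.4% against 23.1%. The chemokine CXCL8 was at 486 and 504 with SOX2 siRNA 1, 763 and 769 with SOX2 siRNA 2 and 2369 ± 107 in si-control (log2 difference -0.63, SE 0.08, adjusted p = 1.05e-06).

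The proteins that load and process small RNAs were read as a list of their own because siRNAs act through them. Of 15, 4 passed as higher and 4 as lower (median -0.01), 53.3% against 23.1% of all described genes. AGO2, the Argonaute that cleaves targets, had 3715 and 3568 with SOX2 siRNA 1, 5279 and 5285 with SOX2 siRNA 2 and 3788, 3461 and 3753 in si-control (log2 difference -0.54, SE 0.05, adjusted p = 1.37e-09). DICER1, which cuts precursors, had 1847 and 1988 with SOX2 siRNA 1, 2612 and 2655 with SOX2 siRNA 2 and 2069, 2064 and 2100.1 in si-control (log2 difference -0.46, SE 0.06, adjusted p = 7.27e-07). For both genes the SOX2 siRNA 2 libraries were the highest, and those of SOX2 siRNA 1 were near or under the controls. AGO4 differed by -0.48, AGO1 by 0.01 and AGO3 by -0.13, of which AGO4 alone passed. DROSHA and DGCR8, the nuclear processing pair, passed as higher (0.20 and 0.18). Without SOX2 siRNA 2 replicate 1 the counts were 1 and 3.

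Of 30 ribosomal protein genes, 0 passed as higher and 12 as lower (median -0.10), and 1 passed as higher with quantile normalization, as did 1 without SOX2 siRNA 1 replicate 1. RPS9 had 10374 and 10860.1 with SOX2 siRNA 1, 12891 and 12719.6 with SOX2 siRNA 2 and 9674 ± 155 in si-control (log2 difference -0.27, SE 0.04, adjusted p = 5.67e-06). RPL23 differed by -0.26 and RPL7 by -0.22. In the main fit 40% of the list passed, against 23.1% of all described genes. Ribosomal proteins have many processed pseudogenes, and how reads were shared with them was not given. Without SOX2 siRNA 2 replicate 1 the lower count was 6, and without SOX2 siRNA 2 replicate 2 it was 7.

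Genes of DNA replication passed as higher for 8 and as lower for 1 of 28 (median 0.05), 32.1% against 23.1%. ORC6, of the origin recognition complex, had 1728 and 1946 with SOX2 siRNA 1, 1481 and 1364 with SOX2 siRNA 2 and 1174 ± 66.4 in si-control (log2 difference 0.37, SE 0.07, adjusted p = 0.000239). RRM2, the small subunit of ribonucleotide reductase, had 4905 and 5157 with SOX2 siRNA 1, 6836 and 6786 with SOX2 siRNA 2 and 4487 ± 121 in si-control (log2 difference -0.44, SE 0.04, adjusted p = 1.64e-08). RRM2 was the member that passed as lower, and both genes were above si-control with either siRNA. MCM5, a subunit of the replicative helicase, differed by 0.34. Of 24 cell cycle genes, 2 passed as higher and 2 as lower (median 0.01), 16.7% against 23.1% of all described genes, and the limma count was 0 without SOX2 siRNA 2 replicate 1. Of 9 replication-dependent histone genes, 0 passed as higher and 1, H1-2, as lower (-0.23), with a list median of -0.14. That is 11.1%, against 23.1% of all described genes. H1-2 lost its call in 9 of 18 settings, among them leaving out any 1 of the 4 SOX2 siRNA libraries, and 1 other histone gene passed as higher without SOX2 siRNA 1 replicate 1. Most of these histone mRNAs lack a poly(A) tail and are poorly sampled by poly(A) libraries.

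In lipid metabolism, members moved both ways. Fatty acid synthesis passed as higher for 5 and as lower for 2 of 13 (median 0.08), and cholesterol synthesis for 5 and 6 of 23 (median -0.08). The shares that passed were 53.85% and 47.8%, against 23.1% of all described genes. ELOVL5, a fatty acid elongase, had 3555 and 3977 with SOX2 siRNA 1, 2317 and 2252 with SOX2 siRNA 2 and 3690.2 ± 5.56 in si-control (log2 difference 0.72, SE 0.05, adjusted p = 2.13e-11), with the SOX2 siRNA 2 libraries below all others. STARD4, a sterol carrier, had 639.9 and 644 with SOX2 siRNA 1, 995 and 1042 with SOX2 siRNA 2 and 1009.8 ± 32.1 in si-control (log2 difference -0.66, SE 0.07, adjusted p = 2.40e-08), with the SOX2 siRNA 1 libraries below all others. MSMO1, an enzyme of cholesterol synthesis, differed by -0.57. The count of passing cholesterol genes was 6 in place of 11 without either replicate of SOX2 siRNA 2, and the fatty acid counts were 2 and 2 without SOX2 siRNA 2 replicate 2.

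Targets of NRF2, the factor of the antioxidant response, passed as higher for 2 (HMOX1 and GCLM) and as lower for 6 of 17 (median -0.03). Their share was 47.1%, against 23.1% of all described genes, with TXNRD1 at -0.30 and AKR1C2, a gene with close copies, at -0.32. Without SOX2 siRNA 2 replicate 2 the counts were 1 and 4. Targets of p53 passed as higher for 2 and as lower for 3 of 18 (median -0.01), 27.8% against 23.1%, and CDKN1A, the cell cycle inhibitor p21, had 6071 and 5758 with SOX2 siRNA 1, 7606 and 7517 with SOX2 siRNA 2 and 4687 ± 82.9 in si-control (log2 difference -0.35, SE 0.04, adjusted p = 3.35e-07). Without SOX2 siRNA 2 replicate 1 the p53 counts were 0 and 3, and without SOX2 siRNA 2 replicate 2 they were 1 and 2. Hypoxia and glycolysis genes passed as higher for 1 and as lower for 3 of 23 (median 0.01), 17.4% against 23.1%, led by NDRG1 (-0.34). Without SOX2 siRNA 1 replicate 2 these counts were 4 and 3, and without either replicate of SOX2 siRNA 2 they were 1 and 1. MAPK feedback and immediate early genes passed as higher for 1 and as lower for 4 of 20 (median -0.05), 25% against 23.1% of all described genes, beside the 2.03-fold difference of MAP2K1. Of these, IER3 differed by -0.70 and PHLDA1 by -0.60, and without SOX2 siRNA 2 replicate 2 the counts were 1 and 2.

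The remaining lists were short or moved little. The share that passed was 40% for YAP/TAZ targets and 42.9% for lineage transcription factors, against 23.1% of all described genes. YAP/TAZ targets passed as higher for 0 and as lower for 4 of 10 (median -0.13), with PTPN14 at -0.85, and as lower for 2 without SOX2 siRNA 2 replicate 1. Wnt targets passed as lower for 2 of 8, NKD1 and DACT1 (median -0.19), 25% against 23.1% of all described genes. DACT1 lost its call in 7 of 18 settings and NKD1 in 2, and the count was 0 without SOX2 siRNA 2 replicate 2 and with no filter on mean level. Mesenchymal genes passed as higher for 1 and as lower for 2 of 13 (median 0.04), a share of 23.1%, the same as over all described genes. Their counts were 3 and 2 without SOX2 siRNA 1 replicate 2, and 1 and 3 without SOX2 siRNA 2 replicate 1. The matrix protein FN1 among them had 1542 and 1466 with SOX2 siRNA 1, 3085 and 3142 with SOX2 siRNA 2 and 2376 ± 44.0 in si-control (log2 difference -1.05, SE 0.05, adjusted p = 1.97e-15). Epithelial genes passed as higher for 1 and as lower for 2 of 11 (median -0.06), 27.3% against 23.1%, with EPCAM at -0.46, and for 0 and 3 without SOX2 siRNA 1 replicate 1. Lineage transcription factors passed as higher for 2 and as lower for 4 of 14 (median -0.02), with POU3F2, a factor of neural fate, at -0.71, and for 0 and 2 without either replicate of SOX2 siRNA 2. Of 7 neural progenitor and stem genes, SALL2 passed as higher (median 0.01), 14.3% against 23.1% of all described genes. SALL2 lost its call in 5 of 18 settings, among them leaving out SOX2 siRNA 1 replicate 2 or either replicate of SOX2 siRNA 2. Of 3 lung epithelial genes 0 passed with limma (median -0.01), 0 at an unadjusted p under 0.05 and 0 with edgeR and DESeq2.

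Markers of cells that a pure line should lack were also read. Of 11 fibroblast markers, 3 were described, and PDGFRA passed as lower (log2 difference -0.77, SE 0.16, adjusted p = 0.000753; list median -0.27). The share that passed was 33.3% of the 3, against 23.1% of all described genes. The summed level of this list was 441 and 469 with SOX2 siRNA 1, 555 and 620 with SOX2 siRNA 2, and 535 to 606 in si-control, made mostly of LUM, PDGFRA and FAP, with COL1A2 and THY1 at under 2 normalized counts in every one of these libraries. The sums hide opposite moves. FAP had 47.7 and 82.5 with SOX2 siRNA 1, 70.1 and 63.1 with SOX2 siRNA 2 and 372 to 441 in si-control. LUM had 194 and 186, 207 and 254, and 59.9 to 93.8 in the same order. PDGFRA had 142.3 and 141.6, 241 and 244, and 48.7 to 59.9. Of 13 blood and endothelial markers, PECAM1 alone was described and passed as lower (log2 difference -0.77, SE 0.13, adjusted p = 0.000107). The sum of that list was 128 and 99.8 with SOX2 siRNA 1, 138 and 174 with SOX2 siRNA 2, and 385 to 407 in si-control, and the defining markers PTPRC and KDR were at 0 in all of them. The part of these markers in other differences was not tested, and in such bulk RNA fewer cells of a type cannot be told apart from less RNA per cell.

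The siRNAs were also set beside each other at the genes that stood farthest from si-control with both. The mean over both siRNAs was at least 2-fold above si-control for 129 described genes and at least 2-fold below it for 327. Of the 129, 24 passed between the siRNAs, 7 higher and 17 lower with SOX2 siRNA 1 (median -0.01), and of the 327, 134 passed, 20 higher and 114 lower (median -0.21). The siRNA nearer to si-control was still at least 1.5-fold from it on the same side for all 129 genes above and for 322 of 327 genes below. Both shares of genes that passed, 18.6% and 41.0%, stand against 23.1% of all described genes, and these genes were chosen by levels that include the same libraries.

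Of the 8 genes highest over si-control, 0 passed between the siRNAs with limma fitted to all libraries, 1 at an unadjusted p under 0.05, 1 (EYA1) with edgeR and 0 with DESeq2. EYA1 also passed with limma fitted to the SOX2 siRNA libraries alone. Over all described genes 23.1% passed, and these 8 were chosen by levels that include the same libraries. CAP2, an actin regulator, had 233 and 227 with SOX2 siRNA 1, 288 and 244 with SOX2 siRNA 2 and 24.0 ± 6.00 in si-control (log2 difference -0.21, SE 0.23, adjusted p = 0.610). SST, the hormone somatostatin, had 110.3 and 107 with SOX2 siRNA 1, 147 and 134 with SOX2 siRNA 2 and 21.4 ± 7.12 in si-control (log2 difference -0.37, SE 0.28, adjusted p = 0.417). MECOM, a zinc finger factor, had 89.0 and 91.1 with SOX2 siRNA 1, 89.9 and 88.6 with SOX2 siRNA 2 and 15.7 ± 4.76 in si-control (log2 difference 0.01, SE 0.30, adjusted p = 0.984). The libraries of SST did not overlap between the siRNAs, and those of MECOM did. RBM24, CACNA1C, EYA1, ACKR3 and ZFP36L1 differed by -0.60, -0.55, 0.49, 0.26 and 0.12, with SE of 0.23 to 0.54.

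Of the 8 lowest under si-control, 6 passed, each lower with SOX2 siRNA 1. Over all described genes 13.0% passed as lower. These 8 were also chosen by levels that include the same libraries, so their count is not an independent result. GP2, a glycoprotein of zymogen granules, had 75.4 and 52.96 with SOX2 siRNA 1, 87.6 and 80.5 with SOX2 siRNA 2 and 1064 ± 38.6 in si-control (log2 difference -0.40, SE 0.11, adjusted p = 0.0107). TNFSF15, a cytokine of the TNF family, had 85.4 and 83.8 with SOX2 siRNA 1, 120.3 and 113 with SOX2 siRNA 2 and 1316 ± 49.4 in si-control (log2 difference -0.46, SE 0.12, adjusted p = 0.00597). Both siRNAs left these genes far under si-control, so the gap between the siRNAs was small beside it. FKBP9P1, a pseudogene whose reads may come from its parent gene, differed by -1.25, MYOM1 by -0.62, MYOF by -0.50 and TCIM by -0.49. TNFRSF9 and FAP did not pass (-0.10 and -0.08). The calls of GP2, TNFSF15, TCIM, MYOM1 and MYOF were each lost in 2 to 7 of 18 settings, GP2 in the most. FAP passed without SOX2 siRNA 1 replicate 2.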

How the data were processed

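Of the series, the siRNA expression table was analysed here, and the members and gene lists were chosen with earlier results of these data known. The deposited values are a signal: the authors' normalized count of each gene in each library. The submitters' processing notes name cutadapt 2.5, STAR 2.5.2b, DESeq2 and the build hg38. The sources used here give no version of DESeq2, no annotation, no counting tool and no strand setting. Of 34791 features listed, 38 non-human ones and 11 pseudoautosomal copies of chromosome Y were left out. Values in a library were whole multiples of a single step (100% within 0.05 reads), and dividing by it recovered whole reads and the depths given above.

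Samples were grouped by the siRNA that their labels name. In R 4.3.3, limma 3.58.1 (eBayes with trend) was run on log2(normalized count + 1) of 16750 genes with a mean of at least 10 over all 11 libraries, with a mean per group, so that every group enters the estimate of the spread. The contrast was SOX2 siRNA 1 minus SOX2 siRNA 2, two-sided, with Benjamini-Hochberg adjustment over the 16750 genes and a threshold of 0.05. An exact permutation test of 2 against 2 libraries cannot go below p = 0.333. The added 1 makes fold changes of low genes too small. The p-values reflect spread among these libraries alone, which may be technical in part. Reads of close copies, pseudogenes and overlapping genes are uncertain.

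Just outside the level limit stood GLS2 (49.9) and SPDEF (49.96), and just inside B3GAT1 (50.04) and RPS28P7 (50.1). Of the gene IDs, 77.0% had a symbol, among them 12393 described genes. Named were SOX2, NKX2-1 and RMST, the 12 highest and 12 lowest genes that passed without overlap, up to 3 members with the largest change per list (34 lists), up to 5 genes each way with si-control between the siRNAs, and the 8 highest and 8 lowest against si-control. The rule took 129 genes, of which the text names a part and some are not reported here, and further list members, CSAG and MAGEA genes were chosen after their values were seen. Alternatives were another pseudocount, filter, scaling or set of libraries, thinning to 16135877 reads, a replicate block, each SOX2 siRNA library left out, and edgeR 4.0.16 and DESeq2 1.42.0 on recovered reads. The fit was tested on simulated data. Promoters came from RefSeq (GRCh38.p14).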

Additional observations from a re-analysis of the deposited data

How the results depend on the processing

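No call changed direction under any of the 18 alternatives, which kept 58.3 to 100% of the 2955 calls. With no filter on level, 679 genes were higher and 1091 lower with SOX2 siRNA 1, and with the SOX2 siRNA libraries alone 800 were higher; the cause was not tested. Leaving out each SOX2 siRNA library in turn gave 695 to 1463 higher and 1108 to 1650 lower genes, and 6 to 12 genes at least 2-fold higher and 73 to 84 at least 2-fold lower. The lone library of a group was then assumed to vary like the other groups. Counts under the other settings stayed within 1.5 times of 1291, 1664, 9 and 73. edgeR on recovered reads with the authors' scaling called 1312 higher and 1632 lower, and DESeq2 1094 and 1385. Other scalings moved the median by -0.01 to 0.02 on the log2 scale. Replicate numbers did not pair the libraries (correlation of deviations -0.03), and with the replicate block 1038 genes were higher and 1464 lower. Of 129 named genes, 37 crossed the threshold in at least 1 alternative. With no filter on level, the higher and lower counts were 0 and 4 for class I antigen presentation, 1 and 3 for neuroendocrine markers and for the Notch pathway, and 0 and 3 for interferon-stimulated genes. With 2 libraries a group, small differences are the least certain.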
